A study of Drosophila melanogaster with 4 samples.

Results

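HDAC3 occupancy of Drosophila genes was compared between 2 antibodies, one raised in rat and one raised in rabbit, at the level of the gene promoter. Each CUT&Tag peak on chromosomes X, 4 and the arms of chromosomes 2 and 3 was given to the gene with the closest transcription start site (TSS), if that TSS lay within 1000 bp of the edge of the peak. Of 18164 annotated genes on these arms, 3952 (21.8%) were assigned a peak from at least one of the lists. Peaks of both lists were assigned to 1672 genes (9.21% of all genes), of the rat list only to 1480 (8.15%) and of the rabbit list only to 800 (4.4%). No peak was assigned to 14212. Below, a gene has a peak only if one was assigned to it, so a peak closer to another gene's TSS does not count. When every gene with a TSS within 1000 bp counted, 3139 genes were shared, 1829 rat only and 1071 rabbit only.

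The embryos were of the laboratory strain w1118, 2 to 4 h old, and both antibodies were used in the first round of the experiment. A second round used the rat antibody on w1118 embryos of the same age and on embryos with HDAC3 knocked down by an shRNA that tub-GAL4, a maternal driver, switches on in the mother (shHDAC3). Only 1 library of whole embryos was made with each antibody in the first round, so antibody and library cannot be told apart and no test between antibodies was possible. The intervals below are exact 95% binomial intervals that cover counting over genes only, and genes are not replicates.

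HDAC3 is a histone deacetylase that works in the SMRTER corepressor complex, the fly counterpart of NCoR and SMRT, together with Smr and ebi. Deacetylases remove acetyl groups from histone tails and are recruited to genes by DNA-binding factors, both to genes that are silenced and to many that are active. In CUT&Tag the antibody tethers a transposase that cuts the DNA nearby, and the cut fragments are sequenced. Fly promoters fall into broad types: those of developmental genes often carry GAGA or Zelda motifs and a TATA box, whereas those of housekeeping genes often carry the DNA replication-related element (DRE), Motif 1, which binds M1BP, or a simple E-box.

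The DNA just upstream of the start of 11 genes is printed to show what these promoter types look like. The genes were picked because they hold a motif and do not represent their groups, for which the share of genes with each motif is given below. Each line is the 100 bases before the TSS of the canonical transcript, read 5′ to 3′ on the strand of the gene from the RefSeq copy of assembly release 6, whose coordinates are those of dm6. Capitals mark any of the 6 searched motifs on either strand. The first 3 genes had a peak in both lists, the next 5 in the rat list only and the last 3 in the rabbit list only.
tld: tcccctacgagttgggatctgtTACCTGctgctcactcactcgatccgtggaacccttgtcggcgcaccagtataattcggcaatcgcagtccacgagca
Cad99C: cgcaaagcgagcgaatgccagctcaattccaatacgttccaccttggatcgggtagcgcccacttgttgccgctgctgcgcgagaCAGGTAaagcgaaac
RpL6: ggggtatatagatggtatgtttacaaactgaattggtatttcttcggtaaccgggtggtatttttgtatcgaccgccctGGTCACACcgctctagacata
halo: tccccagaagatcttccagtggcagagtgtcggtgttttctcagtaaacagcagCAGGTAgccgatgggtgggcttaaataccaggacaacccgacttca
nullo: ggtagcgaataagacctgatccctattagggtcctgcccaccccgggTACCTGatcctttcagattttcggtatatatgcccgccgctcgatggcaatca
sisA: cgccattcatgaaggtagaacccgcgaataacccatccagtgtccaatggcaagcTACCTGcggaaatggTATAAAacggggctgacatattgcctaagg
PolA1: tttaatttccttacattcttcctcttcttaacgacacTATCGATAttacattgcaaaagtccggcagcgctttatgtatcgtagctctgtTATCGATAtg
Dfd: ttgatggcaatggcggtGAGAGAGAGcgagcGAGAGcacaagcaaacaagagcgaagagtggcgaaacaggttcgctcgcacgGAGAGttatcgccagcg
mRpL22: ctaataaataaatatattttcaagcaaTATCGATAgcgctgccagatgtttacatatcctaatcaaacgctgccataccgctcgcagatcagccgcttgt
TrpRS: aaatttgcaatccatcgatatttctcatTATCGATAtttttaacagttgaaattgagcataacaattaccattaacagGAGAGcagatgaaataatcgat
CTCF: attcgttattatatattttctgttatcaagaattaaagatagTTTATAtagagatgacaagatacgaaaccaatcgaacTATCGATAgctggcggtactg

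The windows lie at chr3R:24749631-24749730 (+) for tld, chr3R:29841557-29841656 (+) for Cad99C, chr3R:31596205-31596304 (-) for RpL6, chr2L:1518149-1518248 (-) for halo, chrX:7049376-7049475 (+) for nullo, chrX:11322358-11322457 (-) for sisA, chr3R:21671751-21671850 (-) for PolA1 and chr3R:6791736-6791835 (+) for Dfd. Those of the rabbit-only genes lie at chrX:16783833-16783932 (+) for mRpL22, chr3R:9266905-9267004 (-) for TrpRS and chr3L:7356714-7356813 (-) for CTCF. No annotated exon overlaps these windows, and a peak of the gene's own group covers part of each. The Zelda motif of the early zygotic genes halo, nullo and sisA starts 46, 53 and 45 bases before the TSS. The rat-only PolA1, which encodes a DNA polymerase alpha subunit, carries 2 DREs, so the element was not limited to genes of the rabbit list.

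The rat list was the longer, with 6129 peaks on the arms against 3448 in the rabbit list. Of the rat peaks 57.1% could be assigned to a gene, and of the rabbit peaks 75.0%. The lists therefore named 3152 and 2472 genes, of which the shared 1672 make up 53.0% of the rat and 67.6% of the rabbit genes. At 1568 of the shared genes (93.8%) the strongest rat and rabbit peaks overlapped. Fold enrichment, the ratio of the signal in a peak to the local background, reached 12.02 for the strongest peak of a gene with the rat antibody and 11.4 with the rabbit antibody. Read depth is unknown, so fold was ranked within each list only.

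The share of a list's genes that the other antibody also found rose with the fold of the peak. In the rat list 32.7% (29.0 to 36.5) of the genes in the lowest quintile by fold and 79.6% (76.2 to 82.6) of those in the highest quintile also had a rabbit peak. In the rabbit list the shares were 55.5% (51.0 to 59.9) and 84.6% (81.2 to 87.7). The median fold of the strongest rat peak was 4.20 at shared and 3.57 at rat-only genes, and that of the strongest rabbit peak 4.08 at shared and 3.68 at rabbit-only genes. These values come from the lists that formed the groups and only describe them. Over the 1672 shared genes, the ranks of the folds had a Spearman correlation of 0.47, computed across genes that share the 2 libraries.

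**Figure D1:**
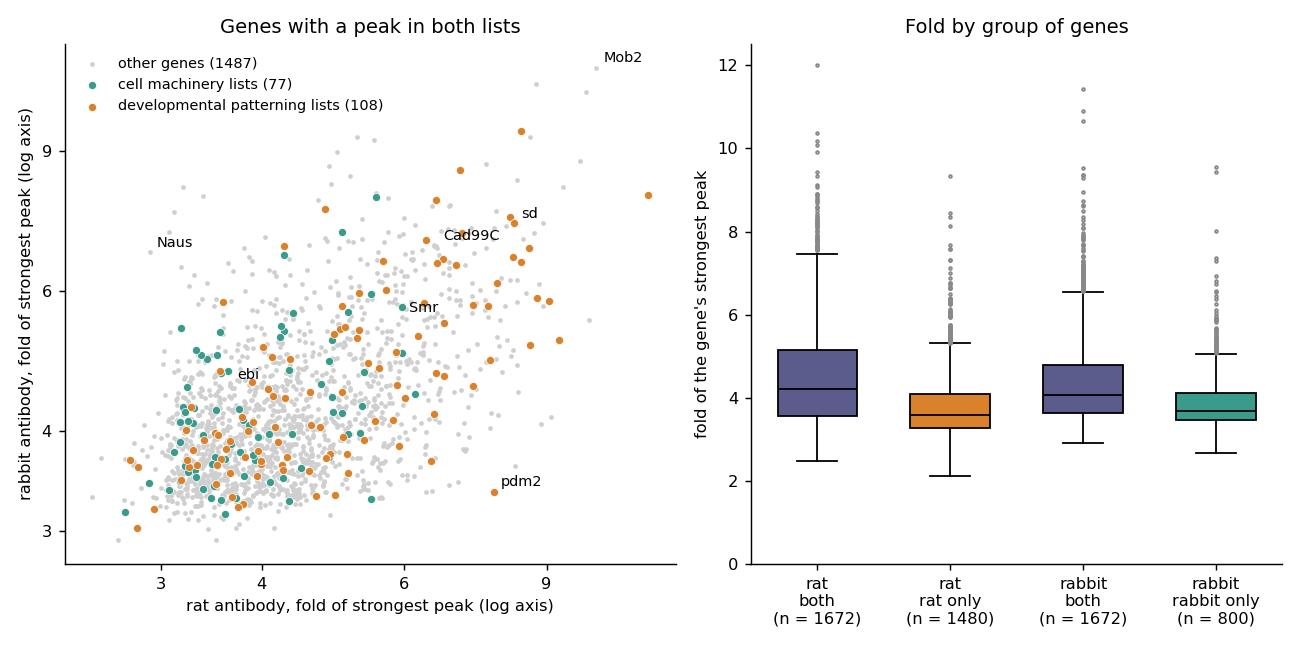
Left: fold of the strongest peak with the rat (x axis) and the rabbit antibody (y axis), both on log axes, for each of the 1672 genes with a peak in both lists, with 108 genes of the developmental patterning lists in orange and 77 of the cell machinery lists in green. Right: fold by group, with boxes from the first to the third quartile, the median as a line, whiskers to 1.5 times the height of the box and points beyond. The median rat fold is 4.20 at shared and 3.57 at rat-only genes.

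Genes that pattern the embryo were frequent in the shared and rat-only groups. In the rabbit-only group, with the rat list at its full length, the interval of their share included the 4.4% of all genes. The 11 lists of patterning genes (gap, pair-rule, segment polarity and Hox genes, mesoderm, neuroectoderm and dorsal ectoderm genes, the Notch, EGFR and Hippo pathways, and short early zygotic genes) held 229 genes. Of these, 108 (47.2%, interval 40.6 to 53.8) had a peak in both lists, 66 (28.8%, 23.0 to 35.2) with the rat antibody only and 5 (2.18%, 0.713 to 5.02) in the rabbit list only, beside 9.21%, 8.15% and 4.4% of all genes. With the rat list cut to its 3448 strongest peaks, the length of the rabbit list, 24 patterning genes (10.5%) were rabbit only and 40 (17.5%) rat only, beside 6.80% and 3.97% of all genes. The 5 rabbit-only genes were fkh, prd, smo, pen-2 and Z600. Each of them also had a rat peak within 3000 bp of a TSS, and at fkh, prd, smo and Z600 the rat peak overlapped the rabbit peak but lay nearest to the TSS of a neighbouring gene. By contrast, 52 of the 66 rat-only patterning genes had no rabbit peak within 3000 bp of any of their TSSs.

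Among the 19 gap and head gap genes, which divide the embryo into broad regions along its long axis, 14 had a peak in both lists and 4 in the rat list only. The head gap gene btd had the highest rat fold of any gene, 12.02, and a rabbit fold of 7.92. The head gap gene ems followed with 8.76 and 5.87, and oc, a homeodomain gene of the head, with 6.38 and 6.96. These genes ranked near the top with either antibody. The trunk gap genes hb and Kr, and the forkhead genes slp1 and slp2, had a peak in the rat list only. Their rat folds were low or middling, with 3.10 at hb, 4.24 at Kr, 3.10 at slp1 and 4.35 at slp2. Of these genes, only hb had a rabbit peak within 3000 bp of a TSS.

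Of the 13 pair-rule genes, which set up the segments, 8 were shared, among them hairy (named hry in the annotation) with a rat fold of 6.95 and a rabbit fold of 6.47, and opa with 5.27 and 5.97. The rat-only members were ftz-f1, ftz and slp1. Of the 23 segment polarity genes, which maintain segment borders, 12 were shared, 3 rat only and 1 rabbit only. The T-box gene H15 had folds of 8.38 with the rat and 9.52 with the rabbit antibody, en, a homeodomain gene of the posterior compartment, 8.10 and 7.42, and wg, which encodes a Wnt ligand, 8.57 and 6.78. The Wnt receptor gene fz had a high rat fold of 6.77 but no rabbit peak closer than 82696 bp to its rat peak.

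The Hox list, which holds the homeotic genes that give segments their identity together with bcd, zen, zen2 and ftz of the same gene complex, had the highest rat-only share of the 54 classes. Of its 12 genes, 3 were shared and 7 rat only, and none was rabbit only, a count of 0 with an upper limit of 26.5%. Abd-B had 4 rat peaks and 2 rabbit peaks, with highest folds of 6.71 and 5.46. The rat-only members were Dfd with a fold of 5.65, lab with 4.76, Antp with 4.22, Ubx with 4.19, Scr with 3.91, pb with 3.80 and ftz with 3.52. The rat folds of these 7 genes thus reached from the 34.3 to the 89.5 percentile of the rat list. At 6 of the 7 no rabbit peak lay within 3000 bp of a TSS, the exception being Antp.

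Genes of the germ layers were shared more often than rat only, and none of the 3 lists had a rabbit-only member. The upper limits of these counts of 0 were 15.4%, 13.7% and 12.8% for the mesoderm, neuroectoderm and dorsal ectoderm lists. The 4.4% of all genes lies below each. In the mesoderm list of 22 genes, 11 were shared, 7 rat only and none rabbit only. The zinc finger repressor gene zfh1 had folds of 7.04 and 8.50, and Mef2, a regulator of muscle differentiation, 8.36 and 6.51. The rat-only members included the Wnt ligand gene wntD with 6.08, fog, a secreted signal for gastrulation, with 5.05, and the FGF receptor gene htl with 4.67. In the neuroectoderm list of 25 genes, 12 were shared and 10 rat only. The repressor gene brk had folds of 7.07 and 7.10, whereas the bHLH genes dpn and ac were rat only at 6.99 and 5.75, as was the EGF pathway protease gene rho at 5.38. In the dorsal ectoderm list of 27 genes, 13 were shared and 8 rat only, with tld, a protease that releases Dpp, at 7.81 and 6.13, and the BMP ligand gene dpp itself at 5.58 and 4.79. The Dpp antagonist sog was rat only with a fold of 4.12.

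Short early zygotic genes, which have few or no introns and are transcribed in the first hours of development, were shared in 15 of 36 cases and rat only in 15. Among the rat-only genes were halo, needed for lipid droplet transport, with a fold of 6.49, nullo, needed for cellularization, with 5.43, the X-linked sex signal sisA with 5.06 and the cellularization gene bnk with 4.62. At all 4 no rabbit peak lay within 3000 bp of a TSS, and the distance from the rat peak to the nearest rabbit peak was 3552 bp at sisA, 25554 bp at bnk, 34661 bp at nullo and 96582 bp at halo. In the Notch list 16 of 32 genes were shared and 9 rat only, in the EGFR list 10 and 7 of 27, and in the Hippo list 12 and 3 of 23. The Hippo pathway transcription factor gene sd had 2 peaks in each list, with highest folds of 8.21 and 7.29.

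**Figure D2:**
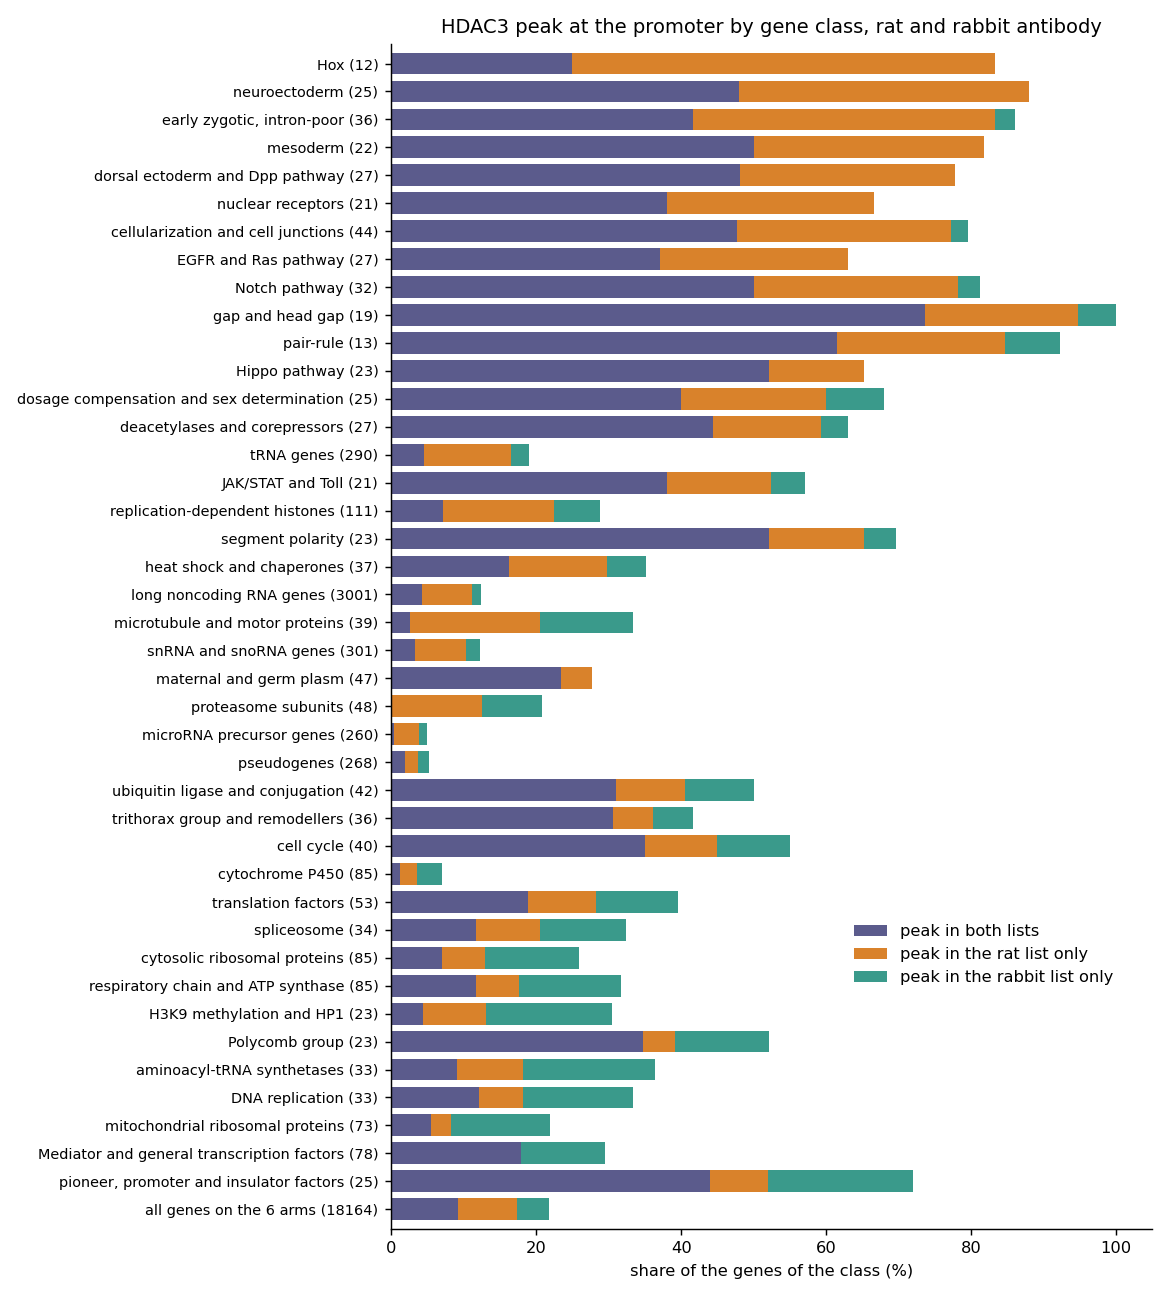
Share of the genes of each class (x axis, percent) with a peak in both lists, in the rat list only or in the rabbit list only, for the classes with at least 5 such genes other than broad protein families, ordered by the rat-only minus the rabbit-only share, and for all 18164 genes at the bottom. The Hox list is at the top with 7 of 12 genes in the rat list only, and the list of pioneer, promoter and insulator factors next to the bottom with 5 of 25 in the rabbit list only. The class labelled long noncoding RNA genes holds all genes of the biotype ncRNA other than microRNA genes.

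Genes of the basic cell machinery had more rabbit-only than rat-only members. The 13 lists (ribosomes of the cytosol and of mitochondria, proteasome, respiratory chain, translation factors, aminoacyl-tRNA synthetases, spliceosome, Mediator and general transcription factors, DNA replication, nuclear pore, chaperones, microtubule motors and ubiquitin conjugation) held 658 genes. Of these, 77 (11.7%, 9.35 to 14.4) had a peak in both lists, 47 (7.14%, 5.30 to 9.39) in the rat list only and 80 (12.2%, 9.76 to 14.9) in the rabbit list only. The shared and rat-only shares were thus near those of all genes, and the rabbit-only share lay above its background of 4.4%. Of the 47 rat-only genes 27 had no rabbit peak within 3000 bp, and of the 80 rabbit-only genes 52 had no rat peak within 3000 bp. Replication-dependent histone genes were left out of this sum because of their repeated copies.

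Of 78 genes of Mediator and the general transcription machinery, 14 (17.9%) were shared and 9 (11.5%) rabbit only, beside 9.21% and 4.4% of all genes. None was rat only, a count of 0 with an upper limit of 4.62%, beside 8.15% of all genes. The rabbit-only members included the Mediator subunit genes MED26 with a fold of 5.29 and MED20 with 5.03, and Tbp, the TATA-binding protein gene, with 4.35. Of 73 mitochondrial ribosomal protein genes 10 (13.7%) were rabbit only, 2 (2.74%) rat only and 4 (5.48%) shared, with mRpL16 at a rabbit fold of 5.55 and mRpL22 at 3.98. Of 85 cytosolic ribosomal protein genes 11 (12.9%) were rabbit only, 5 (5.88%, 1.94 to 13.2) rat only and 6 (7.06%, 2.63 to 14.7) shared. The last 2 intervals include the shares of all genes. RpL21 had 5.06 in the rabbit list and the shared RpS20 had 5.03 in the rat and 7.11 in the rabbit list.

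The 85 genes of the respiratory chain and ATP synthase held 12 (14.1%) rabbit-only, 5 (5.88%) rat-only and 10 (11.8%) shared genes. Among the 33 aminoacyl-tRNA synthetases, which charge tRNAs, 6 (18.2%) were rabbit only, among them ArgRS with 5.89, GlnRS with 5.02 and TrpRS with 3.95. Another 3 (9.09%) were rat only and 3 (9.09%) shared. By count, not every machinery list had more rabbit-only than rat-only members. The 48 proteasome subunit genes had 6 (12.5%) rat-only and 4 (8.33%) rabbit-only members and none shared. The 39 genes of microtubules and motors had 7 (17.9%) rat-only, 5 (12.8%) rabbit-only and 1 shared. The 37 chaperones had 5 (13.5%), 2 (5.41%) and 6. Of all genes, 8.15% were rat only and 4.4% rabbit only. The intervals of these rat-only and rabbit-only shares all include the shares of all genes. The counts therefore do not decide whether these lists leaned to either antibody. The rat folds of the 6 rat-only proteasome genes lay below the middle of the list, with Prosbeta7 highest at 3.75. Overlap with the other antibody's peaks also occurred here, since the rabbit peaks of MED20, mRpL16 and ArgRS overlapped rat peaks assigned to Trf, trr and CG8578.

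Chromatin regulators lay between these sets. The 6 lists held 155 genes, of which 52 (33.5%, 26.2 to 41.6) were shared, 16 (10.3%, 6.02 to 16.2) rat only and 17 (11.0%, 6.52 to 17.0) rabbit only. Of all genes, 9.21%, 8.15% and 4.4% were in these groups, so that the rat-only share was near that of all genes. Of the HDAC3 complex itself, the corepressor gene Smr had folds of 5.96 with the rat and 5.56 with the rabbit antibody, and ebi had 3.65 and 4.58. No peak of either list was assigned to HDAC3. Of the 25 pioneer, promoter and insulator factor genes 11 were shared, 2 rat only and 5 (20.0%, 6.83 to 40.7) rabbit only. The rabbit-only genes were Dref with a fold of 4.24, CTCF with 3.70, M1BP with 3.52, Ibf2 with 3.48 and Opbp with 3.22. The insulator factor gene BEAF-32 was rat only, with a rabbit peak 95 bp from its rat peak. Dref and M1BP encode the proteins that bind the DRE and Motif 1. As given below, both motifs were more frequent at rabbit-only than at rat-only promoters, and Motif 1 was nearly as frequent at shared promoters. The rabbit peak of M1BP overlapped by 820 bp a rat peak assigned to CG8202, and that of Ibf2 by 11 bp one assigned to Ibf1.

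Of the 23 Polycomb group genes, 8 were shared, including both genes of the tandem pair ph-d, at 6.31 and 6.76, and ph-p, at 5.18 and 4.34, which are near-identical copies. The reads of such copies can be hard to tell apart, and how multiply mapping reads were handled is not given in the sources used here. Of 23 genes of H3K9 methylation and HP1, 1 was shared, 2 rat only and 4 rabbit only, with Su(var)3-7, a heterochromatin protein gene, at a rabbit fold of 5.19 and an overlapping rat peak assigned to Ravus. In the list of 25 genes for dosage compensation and sex determination, the noncoding RNA gene roX1 was shared with folds of 4.03 and 5.30. Its partner roX2 was rabbit only at 3.33 with a rat peak assigned to nod overlapping it, and msl-2, the limiting protein of the dosage compensation complex, was rat only at 5.48.

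Genes for noncoding RNAs were seldom rabbit only. The annotation gives the biotype ncRNA to 3001 genes other than microRNA genes, and not all of these RNAs are long. Of these genes 129 (4.30%) were shared, 207 (6.90%) rat only and 35 (1.17%) rabbit only, each below the 9.21%, 8.15% and 4.4% of all genes. Of 290 tRNA genes 13 (4.48%) were shared, 35 (12.1%) rat only and 7 (2.41%) rabbit only. The 7SK gene snRNA:7SKa, whose RNA holds the elongation factor P-TEFb in check, had folds of 10.1 and 10.7, among the highest in both lists. Copies of tRNA and histone genes are nearly identical, and neighbouring copies could split between the groups. For instance, tRNA:iMet-CAT-1-5 was rat only with a fold of 7.13 and tRNA:iMet-CAT-1-4 rabbit only with 6.26, while their peaks overlapped by 420 bp.

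Genes that act late or in specific adult tissues were nearly free of peaks. Of 561 genes for chemosensory receptors, odorant-binding proteins, cuticle, cytochrome P450 enzymes, antimicrobial peptides, eggshell, and sperm or seminal fluid, 13 (2.32%) had a peak in either list, against 21.8% of all genes. None of the 125 cuticle protein genes had one. The strongest member was the gustatory receptor gene Gr2a, shared with folds of 5.11 and 6.92.

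Families of transcription factors were also counted, and their members are partly those of the patterning lists. Of 90 homeodomain genes, found by a protein sequence pattern, 33 were shared, 28 rat only and 1, prd, rabbit only. The rabbit-only share of the homeodomain genes was 1.11% (0.0281 to 6.04), an interval that includes the 4.4% of all genes. Of 50 bHLH genes 12 were shared, 13 rat only and 3 rabbit only, and of 33 T-box, forkhead and Sox genes 12, 7 and 1, the last being fkh. The 232 C2H2 zinc finger genes had 52 shared, 33 rat-only and 14 (6.03%) rabbit-only members, and the 129 protein kinase genes 43, 17 and 9 (6.98%). The intervals of these rabbit-only shares, 3.34 to 9.92 and 3.24 to 12.8, also include the 4.4% of all genes. The 21 nuclear receptor genes had 8 shared and 6 rat-only members and none rabbit only, a count of 0 with an upper limit of 16.1%. Among them svp was shared at 8.90 and 5.74, and the ecdysone receptor gene EcR, at 4.55, was rat only. The rat peak of EcR overlapped a rabbit peak that lay beyond the window.

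The 10 shared genes with the highest mean rank were Mob2, snRNA:7SKa, CG17698, grn, lncRNA:CR45297, btd, ben, H15, disco and CNBP. Mob2, which encodes a kinase coactivator, came first, with a rat fold of 10.4 and a rabbit fold of 11.4, and was found again in the second round with a fold of 6.58. Mob2 also had a peak in the shHDAC3 list of that round, with a fold of 4.00. The GATA factor gene grn had 9.91 and 8.73, and disco, a zinc finger gene, 8.28 and 8.27. Of these 10 genes, 9 also had a second-round w1118 peak, the exception being ben.

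Ranks could nevertheless differ widely at shared genes. At 196 of the 1672 shared genes (11.7%) the percentiles in the rat and the rabbit lists were more than 50 points apart. The POU gene pdm2 lay at the 98.4 percentile of the rat list, with a fold of 7.75, and at the 9.99 percentile of the rabbit list, with 3.36. Msp300, which encodes a nuclear envelope anchor protein, CG32944, the Tet dioxygenase gene and raw followed in this direction, with rat folds of 5.61 to 6.50 and rabbit folds of 3.30 to 3.37. In the other direction Naus had a rat fold of 2.91 and a rabbit fold of 6.70, and the kinase gene SRPK 3.07 and 7.12. RN-tre, qless and CG8360 had rat folds of 3.11 to 3.19 and rabbit folds of 6.42 to 8.10. Over the patterning genes shared by the lists the median percentile was 79.7 in the rat and 70.2 in the rabbit list, and over the shared machinery genes 45.8 and 59.2. Over all 1672 shared genes the medians were 63.6 and 57.8, so the rat percentile was the higher there too.

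The strongest genes of the single-antibody groups were often not sites that the other antibody missed. Of the 10 rat-only genes with the highest fold, 6 had a peak that overlapped a rabbit peak, and so did 6 of the 10 rabbit-only genes with a rat peak. At the zinc finger gene tio, the strongest rat-only gene, the rat peak with a fold of 9.33 overlapped a rabbit peak with a fold of 4.73 by 308 bp, and the latter lay nearest to the TSS of lncRNA:CR33987. The nuclear export receptor gene emb, the strongest rabbit-only gene with a fold of 9.56, shared 393 bp with a rat peak of fold 7.58 that was assigned to the rat-only lncRNA:CR44991. The rabbit peak of fkh, with a fold of 8.02, overlapped by 601 bp a wider rat peak of fold 6.40 assigned to lncRNA:CR43126. At these loci both antibodies gave a peak at overlapping positions, and the nearest TSS differed.

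In all, 183 rat-only genes (12.4%, 10.7 to 14.2) and 164 rabbit-only genes (20.5%, 17.8 to 23.5) had a peak that overlapped a peak of the other list. Of these, 155 rat-only and 154 rabbit-only genes made up 157 pairs, in which a rat-only and a rabbit-only gene had overlapping peaks and the middles of the peaks were a median of 246 bp apart. The other overlapped peaks belonged to genes of both lists or to no gene. In the lowest quintile of a list by fold the share was 8.73% (6.22 to 11.8) of the rat-only and 17.3% (12.5 to 22.9) of the rabbit-only genes, and in the highest 19.4% (13.0 to 27.3) and 42.1% (30.9 to 54.0). Counting such genes as shared gave 2019 shared, 1297 rat-only and 636 rabbit-only genes. No peak of the other list lay within 3000 bp of any TSS at 1045 of the 1480 rat-only genes and 474 of the 800 rabbit-only genes.

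The strongest rat-only genes whose peak did not overlap a rabbit peak were the adenylyl cyclase gene Ac78C with a fold of 8.44, tRNA:Ile-AAT-1-1 with 7.57, the splicing regulator gene Rbfox1 with 7.33 and Gnpnat, a gene of amino sugar synthesis, with 7.30. Their nearest rabbit peaks were 14169, 7565, 114140 and 133 bp away. The corresponding rabbit-only genes were CG17646 with 9.42, Crtc, which encodes a CREB coactivator, with 7.29, stw with 6.73 and the Golgi protein gene lva with 6.57. Their nearest rat peaks lay 6952, 15399, 34455 and 81083 bp away.

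**Figure D3:**
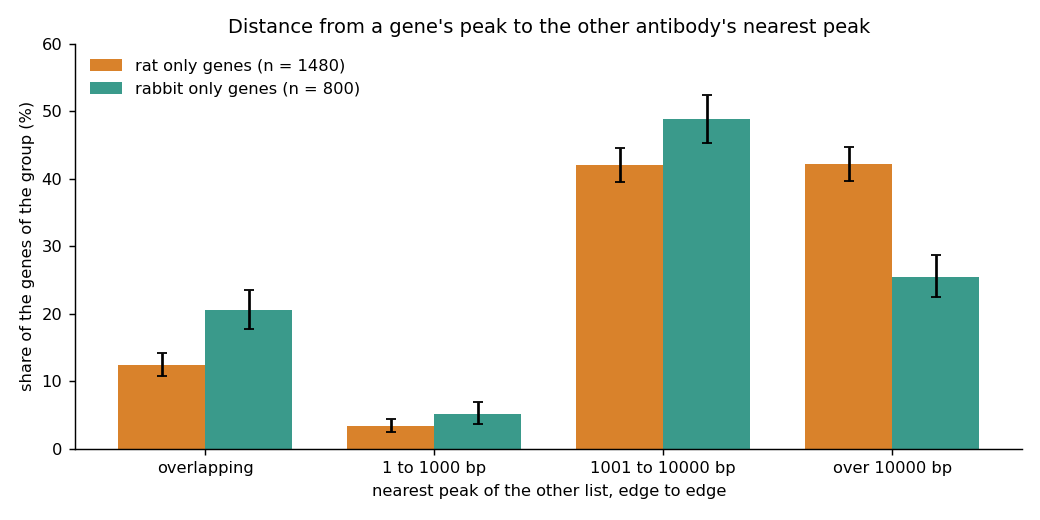
Share of the 1480 rat-only and the 800 rabbit-only genes (y axis, percent, with exact 95% binomial intervals) by the distance from the gene's peak to the nearest peak of the other antibody (x axis, edge to edge). Peaks overlap at 12.4% of the rat-only and 20.5% of the rabbit-only genes, and the other antibody's nearest peak is over 10000 bp away at 42.2% and 25.5%.

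Features of the genes other than the peaks also differed between the groups, and of these the number and spacing of TSSs enter the assignment. Protein-coding genes made up 90.4% of the shared, 80.9% of the rat-only and 93.1% of the rabbit-only genes, against 76.8% of all genes. Coding genes of the shared group were long, with a median of 6596.5 bp, those of the rat-only group 4151.5 bp and those of the rabbit-only group 2670 bp, beside 2166 bp over all coding genes. The median of the longest intron fell in the same order, with 1993.5, 924.5 and 200 bp. A long gene has more TSSs to which a peak can be assigned, and at least 3 TSSs were annotated for 25.3% of the shared, 16.4% of the rat-only, 10.7% of the rabbit-only and 8.12% of all coding genes.

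Of the rabbit-only coding genes 57.3% had a divergent neighbour whose TSS lay within 1000 bp upstream, against 34.1% of the rat-only, 41.4% of the shared and 37.1% of all coding genes. At such pairs the peaks of the antibodies can be assigned to different partners, and the part of this in the difference was not tested. Among genes with no peak of the other list within 3000 bp, a selection that itself removes close neighbours, the shares were 47.3% of the rabbit-only and 25.3% of the rat-only coding genes. The X chromosome held 21.9% of the rabbit-only, 12.8% of the rat-only, 17.3% of the shared and 15.5% of all genes. On the small chromosome 4, which holds 118 genes or 0.65% of all, lay 19 (2.38%) of the rabbit-only, 10 (0.676%) of the rat-only and 14 (0.837%) of the shared genes.

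Promoter motifs were counted from 250 bases before to 50 after the canonical TSS, on both strands. The DRE (TATCGATA) was present in 16.2% (13.7 to 19.1) of the rabbit-only, 7.60% (6.16 to 9.24) of the rat-only and 11.8% of the shared coding promoters, against 8.94% of all coding promoters. Motif 1 (GGTCACAC) was present in 15.97%, 8.43% and 14.4%, against 7.54%. The GAGA motif (GAGAG) had the reverse order, with 26.0% (22.9 to 29.3) of the rabbit-only, 42.1% (39.3 to 44.9) of the rat-only and 38.5% of the shared promoters, against 30.2%. So had the Zelda motif (CAGGTA), with 5.64%, 10.0% and 8.60%, against 6.45%.

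The E-box of housekeeping promoters (CAGCTG) was spread evenly, with 20.7% of the rabbit-only, 19.9% of the rat-only and 18.1% of the shared promoters, against 17.9%. The TATA box (TATAAA) was in 43.2%, 38.8% and 36.7%, against 45.3%. None of the 6 motifs contains another, and a match is only a run of letters. Among genes with no peak of the other list within 3000 bp, the shares were 16.6% for the DRE and 24.6% for GAGA at rabbit-only genes, and 6.32% and 45.2% at rat-only genes.

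**Figure D4:**
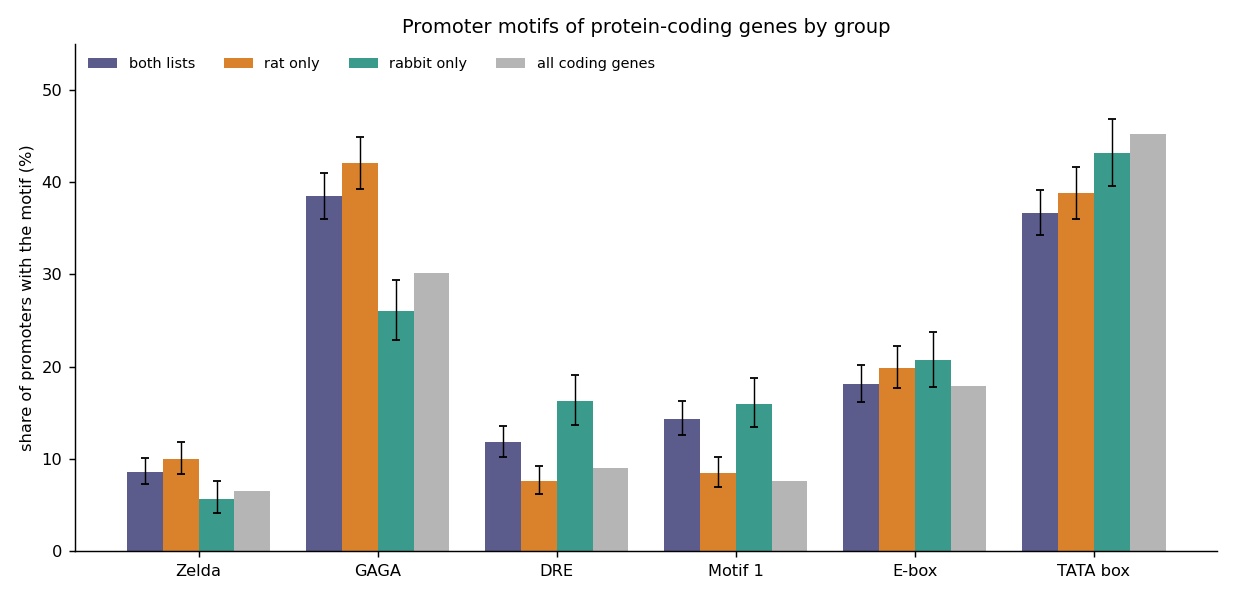
Share of protein-coding promoters (y axis, percent, with exact 95% binomial intervals) that hold each of 6 motifs (x axis), for shared, rat-only and rabbit-only genes and for all coding genes without interval. The DRE and Motif 1 are in 16.2% and 15.97% of the rabbit-only promoters against 7.60% and 8.43% of the rat-only ones, and GAGA in 26.0% against 42.1%.

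The second-round w1118 library, made with the rat antibody, took no part in forming the groups. Its 696 genes are 3.83% of all genes. It held 517 (30.9%, 28.7 to 33.2) of the shared, 107 (7.23%, 5.96 to 8.67) of the rat-only and 24 (3.00%, 1.93 to 4.43) of the rabbit-only genes, and 48 (0.338%) of those with no assigned first-round peak. Genes of the rat list were thus found again at a higher share where they also had a rabbit peak, which is a description of single libraries and was not tested. The library shares its antibody with the rat list, so the rat-only and the rabbit-only share are not on an equal footing.

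The order of shared and rat-only genes was the same within each quintile of rat fold. Within the highest quintile of the rat list by fold, 48.8% (44.4 to 53.3) of the shared and 11.6% (6.66 to 18.5) of the rat-only genes had a second-round peak. In the lowest quintile the shares were 11.7% (7.61 to 16.8) and 3.77% (2.17 to 6.06). Among rabbit-only genes the highest quintile by rabbit fold reached 7.89% (2.95 to 16.4). Without the rabbit-only genes that had a rat peak within 3000 bp, 5 of 474 (1.05%) were found again, whereas the rabbit-only share was 6.07% with the cut rat list and 6.13% when any second-round peak within 1000 bp of a TSS counted. The rat-only share was 5.93%, 10.1% and 10.5% under the same alternatives.

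**Figure D5:**
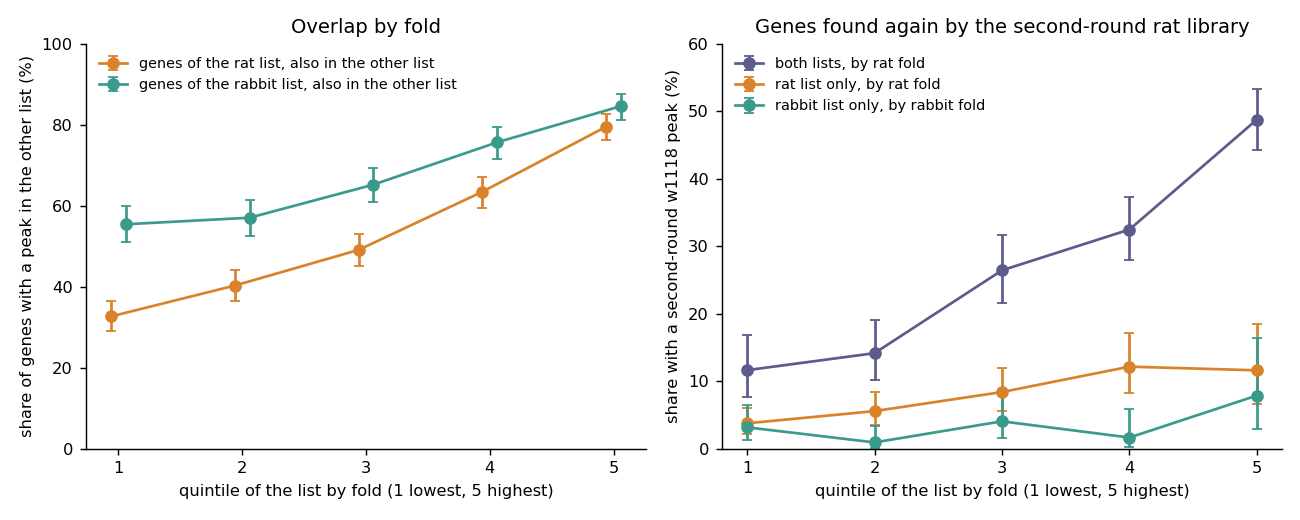
Left: share of the genes of each list that the other list also holds (y axis, percent) by quintile of the list in order of fold (x axis). Right: share of genes with a second-round w1118 peak by quintile, for shared and rat-only genes by rat fold and for rabbit-only genes by rabbit fold. Bars are exact 95% binomial intervals, and in the highest quintile 48.8% of the shared, 11.6% of the rat-only and 7.89% of the rabbit-only genes were found again.

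The gene classes differed in the second round too. Of the shared patterning genes 58 of 108 (53.7%) had a second-round peak, among them btd, en, hry, brk, tld, zfh1 and sd, and of the rat-only patterning genes 10 of 66 (15.2%). Of the shared machinery genes 9 of 77 (11.7%) had one, of the rat-only machinery genes 0 of 47, which allows a share of up to 6.38% if 3 genes are taken as the limit of a count of 0, and of the rabbit-only machinery genes 1 of 80 (1.25%). The rabbit-only patterning genes fkh and prd were both in the second-round list, with a second-round fold of 4.63 at fkh. Cad99C, which encodes a cadherin, had folds of 6.57 and 6.84 in the first round and 4.94 in the second. No peak of either first-round list was assigned to CG32772. A peak nearer to the TSS of another gene would not have counted.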

How the data were processed

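The submitters' processing notes name Trim Galore, Bowtie2, MACS2 and ChIPseeker as tools and dm6 as genome build. Their versions, calling options and any control library are not given in the sources used here. The deposited fold is the MACS2 ratio of signal to local background. The p- and q-values were deposited as −log10, the lowest −log10 q being 1.60 in both first-round lists. The deposited score repeats the q-value and was not used. No list gives read numbers, and the depth of each library is unknown.

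Peaks were assigned to genes of Ensembl release 115 without transposable elements. The 129 rat and 197 rabbit peaks off the arms were left out. A gene took the fold of its strongest peak, and percentiles are among the genes of a list. When several TSSs lay inside a peak, the one closest to its middle was taken. The nearest TSS outside the window was 1001 bp away in the rat list (fold 4.58, CG3764) and 1004 bp in the rabbit list (fold 2.71, Tlk), and the farthest inside 999 bp (fold 3.15, spz3) and 997 bp (fold 3.74, pnt). Gene classes were 54 lists of symbols, symbol patterns, biotypes and protein patterns, and microRNA genes were taken by symbol. The members and lists were chosen with earlier results of these data known. Named genes were the 10 strongest of each group, the 5 largest rank differences each way, the HDAC3 complex with sd, Cad99C, CG32772 and sog, and up to 5 per class and group, or any member of a class of up to 15 genes. Others named are neighbours of these, the 5 rabbit-only patterning genes, genes at the edge of the window and those of the knockdown list, chosen after their values were seen. The assignment was tested on simulated peaks. Python 3.11.15, numpy 2.4.6, pandas 2.3.3, scipy 1.17.1 and matplotlib 3.10.9 were used.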

Additional observations from a re-analysis of the deposited data

Results flagged for a closer look

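Some signal lay outside the comparison of genes. Of the peaks on the arms, 2629 rat and 861 rabbit peaks were farther than 1000 bp from any TSS and were given to no gene. The second-round shHDAC3 list held 18 peaks on the arms, and these named 8 genes. Of these, CenG1A, magu, PRAS40, Rho1, Mob2 and larp had a peak with both antibodies in the first round, whereas none was assigned to CG9948 and bam. Mob2, first among the shared genes by mean rank, had a fold of 4.00 in the shHDAC3 list and 6.58 in the w1118 list of the same round, and CenG1A had 9.90 and 4.61. The lists come from 1 library each and the difference between them was not tested.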

How the results depend on the processing

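The patterning lists had more rat-only than rabbit-only genes and the machinery lists the reverse under each of the 5 alternatives run for them, while the sizes of the groups moved. Cutting the rat list to the 3448 strongest peaks by fold gave 1236 shared, 722 rat-only and 1236 rabbit-only genes, and by −log10 q 698 rat-only and 1211 rabbit-only genes. With −log10 q of at least 3 in both lists there were 681 shared and 332 rabbit-only genes, and with at least 5 there were 254 shared, 678 rat-only and 118 rabbit-only genes. Counting every gene with a TSS within 1000 bp gave 3139 shared genes. The second-round list in place of the first-round rat list gave 541 shared, 155 rat-only and 1931 rabbit-only genes. Requiring no rat peak within 3000 bp left 474 rabbit-only genes. With the cut rat list, the patterning lists had 40 rat-only and 24 rabbit-only genes, so that their rabbit-only share (10.5%) moved above that of all genes (6.80%), and the machinery lists had 45 shared and 14 rat-only genes. With every gene within 1000 bp, 172 machinery genes were shared. With no peak of the other list within 3000 bp, chosen after seeing the data for the classes, 0 patterning genes were rabbit only, and 27 machinery genes were rat only and 52 rabbit only. The second-round share was 37.7% of shared, 10.1% of rat-only and 6.07% of rabbit-only genes with the cut rat list. It was 10.5% and 6.13% of the single-antibody groups when any second-round peak within 1000 bp counted, and 5.93% and 1.05% without genes near a peak of the other list. The cut lists and the thresholds hold fewer peaks by construction. The windows of 500 and 3000 bp, the peak middle, coding genes only and RefSeq models each left the 3 counts within 1.5 times. Requiring that the peaks overlap gave 1634 shared genes, and the other 2 counts were held fixed in that setting. Ranking by −log10 q gave a correlation of 0.46. No paired analysis was possible because there is 1 library per combination.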
